A study of Homo sapiens with 6 samples.

Results

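The α-arrestin family of REH cells was described through 5 genes, TXNIP and ARRDC1 to ARRDC4, out of 26485 entries in the table of gene counts. The genes were chosen by name from a family that had drawn attention in these same measurements, so their values in the comparison of ML141 with DMSO are given as a description, without a test. REH is an established cell line of B-precursor acute lymphoblastic leukemia, bought from a cell bank and grown in RPMI medium with fetal bovine serum. One group received the solvent DMSO and the other 25 µM ML141, a compound that inhibits the small GTPase CDC42, each for 24 hours. Each group had 3 RNA libraries, which per the labels came from independent experiments. Per the labels the groups differ in the agent alone, all cells are of 1 line, and untreated cells were not analysed here.

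The α-arrestins are adaptor proteins with a pair of arrestin-fold domains. Through PPxY motifs in their tails, most of them bring ubiquitin ligases of the NEDD4 family to membrane proteins, which are then taken into the cell. TXNIP, the thioredoxin-interacting protein, differs from the ARRDC proteins in that it also binds reduced thioredoxin, and it promotes the endocytosis of glucose transporters. Its gene is a textbook target of MondoA (encoded by MLXIP) with its partner MLX, which respond to sugar phosphates at carbohydrate response elements. ARRDC4 is the family member known to share that regulation. ARRDC3 has been described in the trafficking of cell-surface receptors, and ARRDC1 recruits TSG101 to bud vesicles from the plasma membrane. In lymphoid leukemia TXNIP is known as a gene induced by glucocorticoids.

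Promoter sequences are shown for 3 of the members because their motifs differ between TXNIP and its relatives. All 5 members matched an entry in the RefSeq promoter table (GRCh38.p14), which lists 1 start site for ARRDC1 and ARRDC4 and 2 for the others. Each line runs 5′ to 3′ on the strand of its gene, ends at the start site or where an annotated exon begins, and positions are counted back from the start site. Capitals mark 3 motifs on either strand and, in TXNIP, also the 5 bases between a pair of them. They are CACGNG, the core of E-boxes and carbohydrate response elements, then CCAAT, the box bound by NF-Y, and finally GTAAACA, a forkhead site.

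TXNIP, first start site, chr1:145996601-145996829, minus strand: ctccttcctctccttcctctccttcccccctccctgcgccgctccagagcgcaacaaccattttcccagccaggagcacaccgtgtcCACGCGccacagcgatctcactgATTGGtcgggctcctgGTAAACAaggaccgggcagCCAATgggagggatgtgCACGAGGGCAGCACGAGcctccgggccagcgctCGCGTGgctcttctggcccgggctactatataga

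ARRDC4, chr15:97960453-97960697, plus strand: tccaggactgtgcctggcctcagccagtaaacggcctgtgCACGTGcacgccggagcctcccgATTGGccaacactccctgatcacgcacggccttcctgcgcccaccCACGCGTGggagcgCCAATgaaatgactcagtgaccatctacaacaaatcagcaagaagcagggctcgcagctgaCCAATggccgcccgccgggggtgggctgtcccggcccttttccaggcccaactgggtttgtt

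ARRDC3, second start site, chr5:91380098-91380347, minus strand: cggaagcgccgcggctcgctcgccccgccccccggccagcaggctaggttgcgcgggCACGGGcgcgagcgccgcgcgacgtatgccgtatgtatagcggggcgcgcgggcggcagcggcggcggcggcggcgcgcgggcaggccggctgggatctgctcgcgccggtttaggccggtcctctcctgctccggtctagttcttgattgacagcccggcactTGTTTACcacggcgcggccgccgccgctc

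The TXNIP promoter held 4 CACGNG matches, and the one from base -88 to -83 and the one from base -77 to -72 lay in the same orientation with 5 bases between them. Such a spaced pair is a layout of a carbohydrate response element. It was searched in the same orientation only, a form set after the TXNIP promoter had been seen. Pairs of cores facing each other were not searched. The same-orientation form was found in 16 of 35116 promoters, or 0.0456%, and nothing is read from that share. TXNIP was the only member that held this form in the 250 bases before a listed start site. A GTAAACA match stood at base -124 to -118 of the same promoter, and 2 CCAAT matches stood at -140 to -136 and -105 to -101. The second TXNIP start site, which lies inside the gene, held none of these motifs.

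The ARRDC4 promoter held the only perfect E-box of the family, CACGTG at base -210 to -205, a motif present in 6.34% of all promoters. It had 2 further CACGNG matches that overlap each other between -142 and -135, and 3 CCAAT matches, but no spaced pair in the same orientation. ARRDC3 was the other member with a GTAAACA match, on the opposite strand at base -29 to -23 of its second start site, in an intron of the gene model. That motif occurred in 2.98% of promoters. The first ARRDC3 start site had a CCAAT match at -241 to -237. ARRDC2 had 3 CACGNG matches within 49 bases of its first start site and 1 CCAAT match at its second, and ARRDC1 had 1 CCAAT match. CACGNG occurred in 26.7% and CCAAT in 32.0% of all promoters. ARRDC1 carried 10 matches to GGGCGG, the GC box bound by SP1, which is present in 42.6% of promoters and is not shown in capitals. ARRDC2 carried 5 at its first and 2 at its second start site, ARRDC3 2 at each, ARRDC4 1 and TXNIP 0 at each. The heat shock element, searched because HSF1 has been described at TXNIP, matched none of the member promoters and 0.441% of all. A match is a run of letters, and binding was not measured in these samples.

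The libraries held 8284299 to 10837224 counts with DMSO and 10436147 to 12308039 with ML141. At these depths 1 count equalled 0.0754 to 0.130 CPM, the unit used here for counts scaled by edgeR's TMM factors and the library size. Of 13 B-precursor markers 11 were at or above 1 CPM, among them CD79A, PAX5 and RAG1, while VPREB1 and CD34 were near 0. The 5 T cell and 5 erythroid markers were at or near 0, and of 6 myeloid markers MPO, CSF1R and ITGAM passed 1 CPM, as did COL1A1 of 6 fibroblast and epithelial markers. The summed B-precursor markers were 6750 to 7360 CPM with DMSO and 8930 to 9240 with ML141, and the summed myeloid markers 49.1 to 50.1 and 32.7 to 36.1; their part in the results below was not tested. The mRNA of CDC42 itself was 277 ± 2.50 CPM with DMSO and 202 ± 10.8 with ML141 (SD, n = 3), which is -0.46 on the log2 scale (SE 0.0751, edgeR adjusted p = 2.93e-04). With ML141, 54.4% of the 11454 genes tested were called at an adjusted p of 0.05, 26.7% higher and 27.7% lower. Of the genes called, 49.1% were higher, against 59.5% with upper-quartile factors and 66.1% with library totals.

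TXNIP lies on chromosome 1 from 145992435 to 145996600 on the minus strand (GRCh38), a compact gene with 8 exon blocks. Its counts were 337, 468 and 629 in DMSO replicates 1, 2 and 3 and 1982, 2228 and 2226 in ML141 replicates 1, 2 and 3. In CPM these were 43.7, 48.5 and 60.6 with DMSO, and 184, 168 and 191 with ML141. All 3 ML141 libraries stood well above all 3 DMSO libraries, and the groups lay far apart relative to their spread. The mean was 50.9 ± 8.73 CPM with DMSO and 181 ± 11.9 with ML141 (SD, n = 3), giving a log2 fold change of 1.82 (SE 0.117) or 3.54-fold. TXNIP had the largest fold change of the members, and its coefficient of variation was 17.1% over the DMSO libraries and 6.57% over the ML141 libraries. Its fold change ranked 180 among the 11454 tested genes, so that 1.56% of them lay higher. In RNA from whole cultures, more cells carrying a transcript and more transcript per cell cannot be told apart.

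ARRDC3, on chromosome 5 from 91368724 to 91383359 (minus strand), encodes an adaptor described in receptor trafficking. It had 79.3, 59.0 and 62.0 CPM in DMSO replicates 1, 2 and 3. With ML141 it had 262, 102 and 111 CPM in replicates 1, 2 and 3. ML141 replicate 1 stood far above the other ML141 libraries, at 2.56 times the lowest of them, and DMSO replicate 1 was also the highest of its group. All ML141 libraries were still above all DMSO libraries. The means were 66.8 ± 11.0 and 159 ± 89.5 CPM (SD, n = 3), giving a log2 fold change of 1.25 (SE 0.292) or 2.38-fold. Without ML141 replicate 1 the log2 fold change was 0.68 (SE 0.109) or 1.60-fold. The spread of ARRDC3 within groups was the widest of the family, a pooled SD of 0.553 on the log2 scale, against 0.183 for TXNIP, 0.201 for ARRDC1 and 0.088 for ARRDC2.

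ARRDC2, an adaptor of the same family whose cargo is less well described, lies on chromosome 19 from 18001132 to 18014102. It had 64.7, 67.1 and 73.7 CPM in DMSO replicates 1, 2 and 3, and 109, 98.2 and 105 CPM in ML141 replicates 1, 2 and 3. The groups did not overlap, and the libraries within each lay close together. Its mean was 68.5 ± 4.65 CPM with DMSO and 104 ± 5.67 with ML141 (SD, n = 3), giving a log2 fold change of 0.60 (SE 0.0897) or 1.52-fold. That size depended on the scaling, since it was 0.70 with upper-quartile factors and 0.77 with library totals. Of its exon bases 6.86% lie under AC020904.3 on the opposite strand, and the library kit does not mark strand, so reads there cannot be assigned to one of them.

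ARRDC1, the member that recruits TSG101 for vesicle budding, lies on chromosome 9 from 137605654 to 137615360. It was the scarcest of the tested members, with 49 to 82 counts in a DMSO library and 106 to 163 in an ML141 library. In CPM it was 6.35, 6.32 and 7.91 in DMSO replicates 1, 2 and 3 and 9.82, 12.3 and 9.11 in ML141 replicates 1, 2 and 3. The groups did not overlap, but the highest DMSO library and the lowest ML141 library were close. The means were 6.86 ± 0.906 and 10.4 ± 1.67 CPM (SD, n = 3), giving a log2 fold change of 0.60 (SE 0.181) or 1.51-fold. ARRDC1 and ARRDC2 thus had nearly the same fold change, and the SE of ARRDC1 was larger. ARRDC1 shares 1.70% of its exon bases with the antisense gene ARRDC1-AS1 and 5.80% with AL590627.2 on its own strand.

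ARRDC4, the relative that shares MondoA regulation with TXNIP elsewhere, lies on chromosome 15 from 97960698 to 97973838. It had 1 count in DMSO replicate 1 and 0 in each of the other 5 libraries. A count of 0 allows up to 3 counts, which is 0.226 to 0.311 CPM in those libraries and 0.0841 CPM over the ML141 group, a limit for counting error only. Any difference between the groups was not detectable at this depth, and ARRDC4 was left out of the fit by the filter on low counts. The fold change that the authors' deposited table lists for it, -1.34 on the log2 scale, rests on that single count. For the other members the authors' deposited table gives log2 fold changes of 1.82 for TXNIP, 0.59 for ARRDC1, 0.60 for ARRDC2 and 1.24 for ARRDC3.

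**Figure D1:**
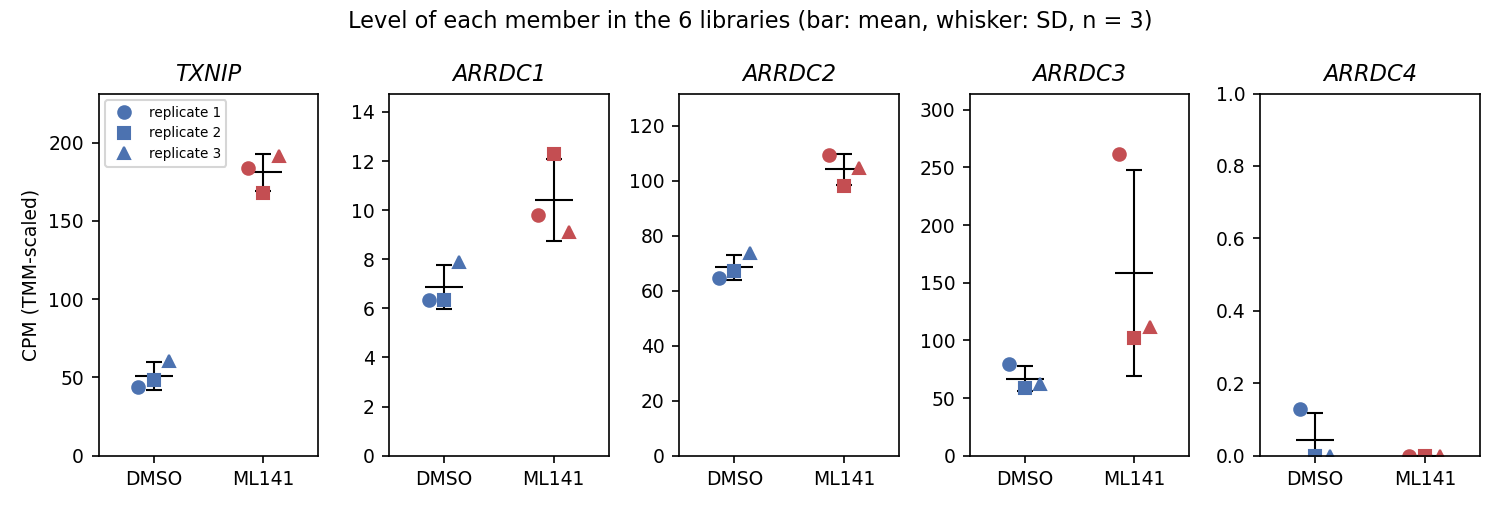
Level of each member in CPM (TMM-scaled, each panel with its own axis from 0) in the 3 DMSO libraries (blue) and the 3 ML141 libraries (red), with the marker shape giving the replicate number, the bar the mean and the whisker the SD. TXNIP is at 43.7 to 60.6 CPM with DMSO and 168 to 191 with ML141, ARRDC3 has ML141 replicate 1 at 262 CPM above replicates 2 and 3, and ARRDC4 has 1 count in all.

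In all, 4 of the 5 members passed the filter on low counts. All 4 were called higher, where 26.7% of all tested genes were called higher, and in all 4 every ML141 library was above every DMSO library, which held for 30.5% of tested genes. Since the same contrast led to the choice of the family, nothing is read from these counts. The fold changes were spread over a wide range of ranks: 1.56% of tested genes had a higher fold change than TXNIP, 4.30% than ARRDC3, 16.0% than ARRDC2 and 16.1% than ARRDC1. The direction was higher for each of the 4 under TMM, DESeq2 size factors, upper-quartile factors and library totals. Over all tested genes the median was 0.02 with TMM, 0.12 with upper-quartile factors and 0.19 with library totals, so the members' differences exceeded that shift.

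**Figure D2:**
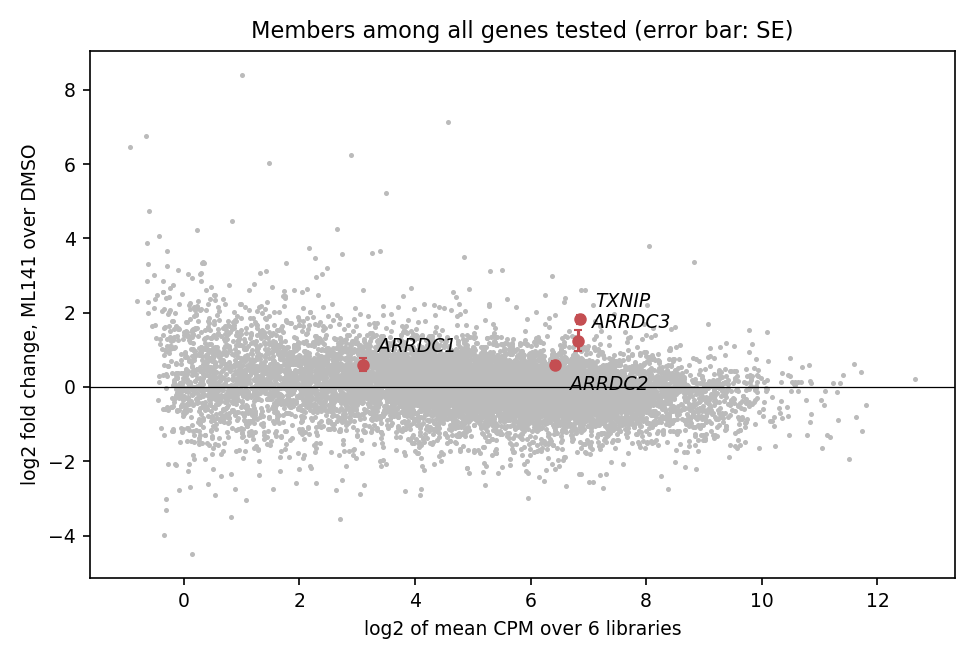
Log2 fold change of ML141 over DMSO (y axis) against the log2 of the mean CPM over the 6 libraries (x axis) for all 11454 tested genes in grey, with the 4 tested members in red and whiskers for the SE. TXNIP and ARRDC3 are alike in mean level and lie above most genes of that level, ARRDC2 lies inside the grey band, and ARRDC1 lies at a lower level with a similar fold change to ARRDC2.

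Levels between members were compared as CPM per kilobase of exon, which corrects for gene length. With DMSO the order was ARRDC2 at 23.2 ± 1.58, ARRDC3 at 15.9 ± 2.63, TXNIP at 15.9 ± 2.72 and ARRDC1 at 4.33 ± 0.571 CPM per kilobase (SD, n = 3), with ARRDC4 at 0.0106. The ARRDC2 libraries were all above those of TXNIP and ARRDC3, which overlapped each other, and ARRDC1 was below all of them. With ML141 the order was TXNIP at 56.3 ± 3.70, ARRDC3 at 37.9 ± 21.4, ARRDC2 at 35.3 ± 1.92 and ARRDC1 at 6.56 ± 1.05 CPM per kilobase. TXNIP was above ARRDC2 in every ML141 library. ARRDC3 was not separated from either neighbour, since its libraries were at 62.5, 24.5 and 26.6 CPM per kilobase in replicates 1, 2 and 3, against 57.1, 52.3 and 59.6 for TXNIP and 37.2, 33.3 and 35.5 for ARRDC2. The length used changed the order of overlapping neighbours only. With the longest transcript in place of all exons TXNIP was at 17.4 with DMSO, above ARRDC3, and ARRDC2 was at 41.2 with ML141, also above ARRDC3.

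The place of TXNIP among expressed genes was in the middle with DMSO and near the top with ML141. Its level per kilobase was above that of 62.7% of the 10858 tested genes with a known length with DMSO and above 91.8% with ML141. ARRDC3 went from 62.9% to 86.0%, ARRDC2 from 72.7% to 84.7% and ARRDC1 from 30.3% to 37.8%. The summed level of the 5 members was 59.4 ± 3.94 CPM per kilobase with DMSO and 136 ± 23.8 with ML141 (SD, n = 3).

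The largest share of the family's transcripts belonged to ARRDC2 with DMSO and to TXNIP with ML141 on average, although ARRDC3 held the largest share in ML141 replicate 1. TXNIP made up 23.2%, 27.0% and 29.6% of the family's summed level in DMSO replicates 1, 2 and 3, and 35.1%, 44.4% and 46.8% in ML141 replicates 1, 2 and 3. ARRDC2 made up 37.5%, 40.7% and 39.3% with DMSO and 22.8%, 28.3% and 27.9% with ML141. For both genes the groups did not overlap, in opposite directions. Shares in a library add to a fixed total, so a larger share for TXNIP leaves less for the others. The level of ARRDC2 itself was higher with ML141. ARRDC3 had a mean share of 26.9 ± 4.80% with DMSO and 26.7 ± 10.1% with ML141, but its libraries ranged from 20.8% to 38.3% with ML141. ARRDC1 made up 7.27 ± 0.508% with DMSO and 4.96 ± 1.44% with ML141.

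**Figure D3:**
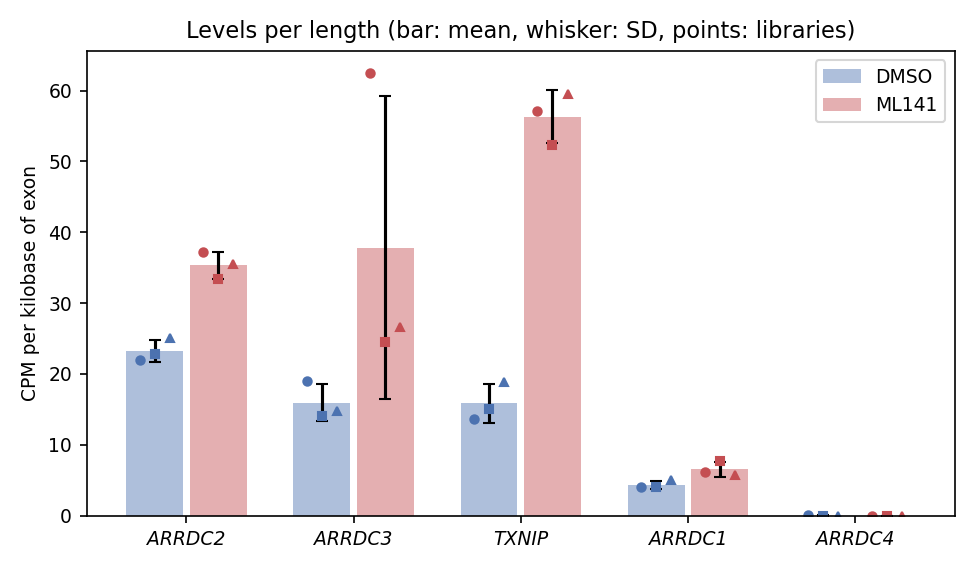
CPM per kilobase of exon for each member with DMSO (blue) and ML141 (red), with bars for the mean of 3 libraries, whiskers for the SD and points for the libraries (circle, square and triangle for replicates 1, 2 and 3). ARRDC2 is the highest member with DMSO at 23.2 and TXNIP the highest with ML141 at 56.3, while the ML141 value of ARRDC3 has a wide whisker from 1 library at 62.5.

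The antisense genes named for members and a further relative were also read. ARRDC1-AS1, which runs against the end of ARRDC1, had 10.5 ± 2.35 CPM with DMSO and 11.2 ± 0.896 with ML141 (log2 fold change 0.09, SE 0.178, edgeR adjusted p = 0.692). Its groups overlapped, and the sign of this small difference turned in fits without DMSO replicate 1. ARRDC3-AS1, which starts near the second ARRDC3 start site on the opposite strand, had 2, 3 and 6 counts in DMSO replicates 1, 2 and 3 and 9, 8 and 9 in ML141 replicates 1, 2 and 3, too few to be tested. ARRDC5, a further α-arrestin that was not chosen, had 0.748 ± 0.430 CPM with DMSO and 1.52 ± 0.614 with ML141, and its groups overlapped (log2 fold change 0.97, SE 0.447, edgeR adjusted p = 0.0845).

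The genes around the family were read from 11 lists, of which the ones that follow are ordered from control of TXNIP to the cargo of ARRDC3. Medians are log2 fold changes, to be set beside 0.02 for all 11454 tested genes, and tests are those of edgeR over all genes. Counts are to be set beside the shares of all tested genes, 26.7% higher, 27.7% lower and 54.4% in either direction, and a list with about that share called is no result about the list. Of 10 tested factors of the Mondo and MYC networks, 5 rose and 1 fell, with a median of 0.31, so that the number called in either direction was near the background. MLXIP, which encodes MondoA, was at 123, 120.1 and 126 CPM in DMSO replicates 1, 2 and 3 and at 234, 337 and 276 CPM in ML141 replicates 1, 2 and 3. It rose 2.29-fold (SE 0.116 on the log2 scale, adjusted p = 5.84e-06), and every ML141 library was above every DMSO library. Its partner MLX was at a mean of 65.4 CPM with DMSO and 68.0 with ML141, and its groups overlapped (0.06, SE 0.0887, adjusted p = 0.617); with library totals it passed the threshold at 0.23 (adjusted p = 0.0345). MLXIPL, the paralogue that encodes ChREBP, had 1 count in all 6 libraries together. MXI1, which encodes a MAX-binding repressor, rose by 1.06, while MYC fell by 0.64 on the log2 scale.

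Of 15 other carbohydrate-response targets listed, only 9 had enough counts to be tested, and those were mostly lower, unlike TXNIP. Of 9 tested, 6 fell and 0 rose by edgeR at the threshold, with a median of -0.55; 0 were higher at an unadjusted p of 0.05, with DESeq2 or with limma-voom. ELOVL6, a fatty acid elongase, fell from 29.3 ± 1.82 to 6.22 ± 0.683 CPM (log2 fold change -2.23, SE 0.139, adjusted p = 2.57e-07), and TKT, the transketolase of the pentose phosphate pathway, fell by 0.64. With upper-quartile factors or library totals 5 of the 9 fell. Among 14 other transcription factors described at the TXNIP promoter, 10 rose and 2 fell, with a median of 0.31, although 7 in all passed without DMSO replicate 2. NR3C1, the glucocorticoid receptor, rose from 75.1 ± 1.86 to 143 ± 6.48 CPM (0.93, SE 0.0807, adjusted p = 2.56e-06) and KLF6 rose by 1.22. The forkhead factors FOXO1, FOXO3 and FOXO4, named here after their values were seen, rose by 0.58, 0.44 and 0.89. EZH2, a Polycomb methyltransferase, fell by 0.78. The subunits of the CCAAT-binding factor NF-Y differed in direction. NFYB fell by 0.47, NFYC rose by 0.36, and NFYA did not pass the threshold (-0.20, edgeR adjusted p = 0.069).

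The thioredoxin and peroxiredoxin system, to which TXNIP is tied through its binding partner, had 2 genes higher and 8 lower of 17 tested, with a median of -0.18. With library totals the counts were 4 and 8 and the median was -0.0053. TXN, which encodes the thioredoxin bound by TXNIP, fell from 155 ± 7.03 to 83.3 ± 10.9 CPM (-0.89, SE 0.101, adjusted p = 1.81e-05). PRDX1, an abundant peroxiredoxin that thioredoxin reduces, fell from 1048 ± 34.9 to 358 ± 21.2 CPM, and PRDX3, its mitochondrial relative, fell by 1.03 on the log2 scale. MSRA and MSRB2, which reduce oxidised methionine, rose by 0.97 and 0.68. Of 7 other tested partners of TXNIP 2 rose and 3 fell, with a median of 0.04, and with library totals 4 rose and 2 fell. DDIT4, an inhibitor of mTORC1 signalling that binds TXNIP, rose from 30.9 ± 3.00 to 163 ± 30.5 CPM (2.40, SE 0.136, adjusted p = 1.49e-07). CDKN1B, a cell cycle inhibitor, rose by 0.87, whereas MAP3K5 and HDAC1 fell by 0.73 and 0.48.

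The glucose transporters that TXNIP removes from the membrane were mixed in direction. Of 7 tested transporters and hexokinases 1 rose and 3 fell, with a median of -0.27, again near the 54.4% called over all tested genes. SLC2A1, which encodes the transporter GLUT1, was at 39.8 ± 2.18 CPM with DMSO and 37.6 ± 1.74 with ML141, and its groups overlapped (-0.09, SE 0.0998, adjusted p = 0.492). Its sign was positive with upper-quartile factors and library totals. SLC2A3, for GLUT3, was at 19.1, 22.1 and 24.6 CPM in DMSO replicates 1, 2 and 3 and at 39.6, 32.0 and 36.5 in ML141 replicates 1, 2 and 3, and rose (0.71, adjusted p = 6.50e-04). SLC2A4, for GLUT4, fell from 3.24 ± 0.694 to 0.468 ± 0.121 CPM, and HK2, a hexokinase, fell by 0.52.

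Among the ligases that the PPxY motifs engage, 3 rose and 1 fell of 8 tested NEDD4-family ligases and adaptors, with a median of 0.17. With upper-quartile factors or library totals 5 were called, all of them higher, and 2 in all passed in the fit without both libraries numbered 3. NDFIP1, an adaptor of these ligases, rose by 0.76 and NEDD4 by 0.46, NEDD4L fell by 0.33, and ITCH, the ligase best known for TXNIP, was at 171 ± 7.19 and 185 ± 22.5 CPM with overlapping groups (0.12, adjusted p = 0.305). With upper-quartile factors and library totals ITCH passed the threshold, at 0.22 and 0.29, and the call of NEDD4L was lost. Of 7 tested other arrestins and arrestin-fold proteins 1 rose and 2 fell, with a median of 0.19, against 4 called with upper-quartile factors and 5 with library totals, all of them higher. At most 1 gene of this list was called without DMSO replicate 1, without ML141 replicate 3 or without both libraries numbered 3. ARRB1, the first β-arrestin gene, was at 40.9 ± 1.46 and 48.2 ± 3.55 CPM (0.24, adjusted p = 0.0618), and it did not pass the threshold. It passed, at 0.24 to 0.41, with upper-quartile factors, library totals, the stricter filter and the replicate block, and also without ML141 replicate 1 or both libraries numbered 1. ARRB2 was at 78.4 ± 2.24 and 66.6 ± 4.04 CPM (-0.24, adjusted p = 0.0383), a call lost under most alternatives.

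In the ESCRT machinery, which ARRDC1 uses to bud vesicles, 7 genes rose and 2 fell of 23 tested, with a median of 0.12. Over all tested genes 26.7% were higher and 27.7% lower. With library totals 13 were called, all of them higher, and in the fits without both libraries numbered 2 or 3 the genes called were 5 and 3. TSG101, the partner of ARRDC1, rose from 43.4 ± 4.61 to 62.5 ± 10.0 CPM (0.53, SE 0.130, adjusted p = 0.00449), a call that was lost without both libraries numbered 3. Further parts of its complex, VPS28, MVB12B and VPS37A, rose by 0.82, 0.64 and 0.45, and UBAP1 by 0.24 (edgeR adjusted p = 0.0499). Its parts VPS37B, VPS37C and MVB12A did not pass the threshold, at -0.03, 0.33 and 0.17. CHMP4B and SNF8 fell by 0.32 and 0.38, calls that were lost with library totals. The last list holds receptors and adhesion proteins described as cargo of ARRDC3 and ARRDC4, and in addition LYN, a Src-family kinase that is neither. Of its 5 tested genes, LYN included, 4 fell and 0 rose by edgeR, with a median of -0.71. At an unadjusted p of 0.05, with DESeq2 and with limma-voom 0 were higher, and with library totals 1 was. TFRC, the transferrin receptor, fell from 729 ± 60.3 to 220 ± 9.35 CPM (-1.73, SE 0.0856, adjusted p = 7.65e-08) and LYN fell by 0.71.

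**Figure D4:**
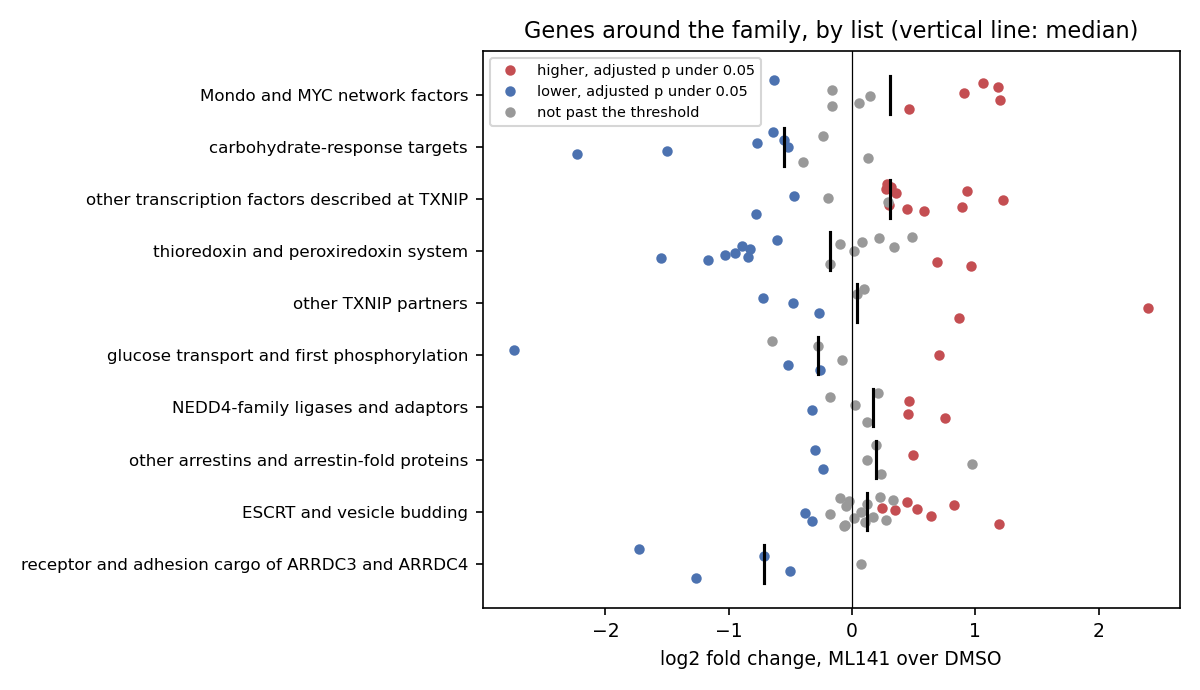
Log2 fold change of ML141 over DMSO (x axis) for each tested gene of 10 lists around the family (rows), in red where higher and blue where lower at an edgeR adjusted p of 0.05 and grey otherwise, with a vertical line for the median of each list. Carbohydrate-response targets and the cargo list, which includes the kinase LYN, have their medians at -0.55 and -0.71, and transcription factors described at TXNIP at 0.31.

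The genes whose 6 values were most like those of each member were taken, as a description, from the 9686 tested genes whose mean reached 5 CPM. Likeness was the root mean square difference of log2 CPM after centring each gene on its own mean, so that 0 is the same profile. Among the nearest to TXNIP were GPR132 at 0.0861, ETV6 at 0.116, SYNE3 at 0.139 and SH3TC1 at 0.143. GPR132, a G protein-coupled receptor gene, had 3.37, 3.73 and 4.34 CPM in DMSO replicates 1, 2 and 3 and 14.7, 12.1 and 16.6 in ML141 replicates 1, 2 and 3. It followed TXNIP in having its highest control in DMSO replicate 3 and its lowest treated library in ML141 replicate 2. Since the genes were picked for their likeness, shared features of this kind are part of the choice.

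ARRDC1 had closer neighbours, with CEP170B at 0.0198, GRAMD1A at 0.0412 and CACNB1 at 0.0550, and so did ARRDC2, with BCL11A at 0.0325, PKD2 at 0.0412 and AP4S1 at 0.0444. Both have modest fold changes, where many genes lie. The uneven ARRDC3 profile had the most distant neighbours, CDKN1A at 0.220, DRAM2 at 0.222 and ZNF571 at 0.263. CDKN1A, which encodes the cell cycle inhibitor p21, had 35.5, 36.2 and 35.6 CPM in DMSO replicates 1, 2 and 3 and 103, 56.9 and 57.9 in ML141 replicates 1, 2 and 3. In all 3 neighbours, ML141 replicate 1 was the highest library, as in ARRDC3, which the choice by likeness favours.

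**Figure D5:**
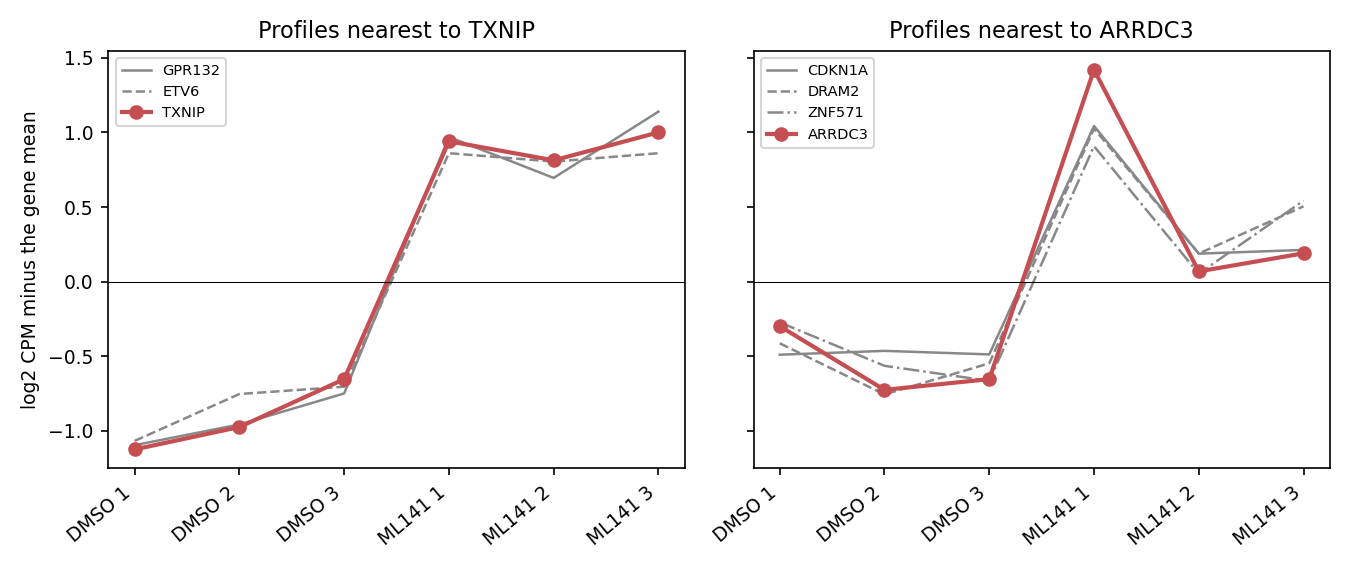
Log2 CPM of each gene minus its own mean (y axis) in the 6 libraries (x axis, with no order among replicates; lines only join the values of a gene), for TXNIP with its 2 nearest genes on the left and ARRDC3 with its 3 nearest on the right, members in red. The TXNIP panel shows 2 levels, DMSO and ML141, and the ARRDC3 panel shows ML141 replicate 1 above the other ML141 libraries in all 4 genes.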

How the data were processed

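RNA of REH cells was sequenced in 3 DMSO and 3 ML141 libraries, grouped by sample title. Total RNA was column-purified and made, per the labels' protocols, into libraries with the TruSeq RNA v2 kit. Unnormalized counts, deposited as whole numbers by gene symbol, were used for all results. The table also holds scores (counts that the authors divided by size factors of 0.735 to 1.29 and rounded) and the fold ratio, log2 fold change and p-value of the authors' own comparison, from which only log2 values named as the authors' are printed. The submitters' processing notes name hg38, DESeq2, featureCounts, Picard, Bowtie2, Trimmomatic and bcl2fastq 2.19. How they were set, with which annotation and strand option, is not given in the sources used here. All per-sample columns were matched, with 0 left unused.

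Of 26485 entries, 16703 had a count and 11454 passed filterByExpr (minimum count 10, minimum total 15). They were TMM-scaled and tested with edgeR 4.0.16 in R 4.3.3 (glmQLFit, glmQLFTest, group as the only term, 2-sided, Benjamini-Hochberg over all genes, threshold 0.05). The SE is the log2 fold change over the square root of F. P-values measure the spread between these libraries. The pairwise chi-square per degree of freedom within groups was 2.90 to 18.4, so no library was a copy of another. It cannot tell whether libraries came from separate cultures. The procedure was tested on simulated data in which few genes changed, as many up as down. That setting differs from these data and does not test the choice of scaling. Positions and lengths are from GENCODE 29 (GRCh38, the build of the counts).

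The members and gene lists were chosen with earlier results of these data known, and the motifs after the members' promoters had been seen. Besides the members, the genes named are CDC42, MLXIP, MLX, TXN, SLC2A1, SLC2A3, ITCH, ARRB1, ARRB2, TSG101, both antisense genes, up to 2 higher and 2 lower genes per list with the smallest p and groups apart, and the nearest profiles (5 for TXNIP, 3 for others; log2 CPM with prior count 2). HK2 is in 2 lists. The FOXO, NF-Y and ESCRT genes that fall outside this rule were named after their values were seen. Motifs were searched on both strands of the 250 bases before each start site, the spaced pair as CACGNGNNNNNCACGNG and the heat shock element as 3 GAA blocks in alternating orientation with 2 bases between them, and every CACGTG is also a CACGNG match. Protein features were planned and are not analysed here, and some genes that this rule names are not reported here. Alternatives were other scalings, filters, DESeq2 1.42.0 (Wald), limma-voom (limma 3.58.1), a replicate block, leaving out each library or replicate number, transcript length, and a prior count of 0.5.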

Additional observations from a re-analysis of the deposited data

How the results depend on the processing

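The 4 tested members kept their direction under every alternative run. Over the other scalings, filters, tests and the replicate block, the log2 fold change was 1.82 to 1.99 for TXNIP, 0.59 to 0.77 for ARRDC1, 0.60 to 0.77 for ARRDC2 and 1.12 to 1.41 for ARRDC3. It moved by more than the spread of the libraries for ARRDC2, to 0.70 with upper-quartile factors and 0.77 with library totals. With 1 library or 1 replicate number left out it was 1.71 to 1.97 for TXNIP, 0.40 to 0.81 for ARRDC1, 0.52 to 0.66 for ARRDC2 and 0.68 to 1.49 for ARRDC3; the cause was not tested. Of all tested genes 6230 were called, 49.1% of them higher, against 6454 and 59.5% with upper-quartile factors and 6792 and 66.1% with library totals, and 4161 to 6567 were called with libraries left out. Genes called in a list, in both directions together, numbered 7 to 13 with libraries left out for the transcription factors described at TXNIP, 2 to 5 for NEDD4-family genes, 0 to 4 for other arrestins and 3 to 10 for ESCRT genes, where fewer samples entered the fit. Other arrestins had 5 with library totals and 5 with the replicate block. SLC2A1 turned from -0.085 to 0.018 with upper-quartile factors and 0.088 with library totals. With libraries left out ARRDC1-AS1 ranged from -0.061 to 0.27 and MLX from -0.0091 to 0.095. Of 662 values of 39 named genes under alternatives, 624 kept direction and call, 24 lost the call, 9 gained it and 5 changed sign. Libraries with the same replicate number deviated together with correlations of 0.374, 0.0847 and 0.178 for numbers 1, 2 and 3. The sample descriptions give same-numbered libraries of the groups a shared code, but the labels do not say that it marks a shared experiment. Since not every pair passed 0.1 the numbers were not taken to pair the samples, and DMSO replicate 3 was closest to ML141 replicate 2 (0.291). That mark is a rule of choice and not a test, so a pairing is not excluded, and the main fit leaves it out. The replicate block gave 6979 calls and log2 fold changes of 1.83, 0.59, 0.60 and 1.13 for TXNIP, ARRDC1, ARRDC2 and ARRDC3, with the SE of ARRDC3 at 0.134 against 0.292, and ARRB1 passed the threshold. Depth limits ARRDC4 and ARRDC3-AS1, which had too few counts to test.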

Other observations

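The other genes whose listed promoter holds the spaced CACGNG pair of TXNIP were looked at after that match had been seen. There were 15 such genes, and 11 of them were tested by edgeR over all genes. Of these, 4 were higher with ML141, 3 were lower and 4 did not pass, beside 26.7% higher and 27.7% lower over all tested genes, so the counts are near the background. GFPT1, which encodes the first enzyme of the hexosamine pathway, rose from 140 ± 7.38 to 191 ± 22.0 CPM (SD, n = 3; log2 fold change 0.45, SE 0.0947, edgeR adjusted p = 0.00163). AKAP10 rose by 0.40, MTHFS by 0.97 and MYL5 by 1.41, the latter 2 at a mean of under 4 CPM in both groups. RAN, the GTPase of nuclear transport, fell from 916 ± 46.0 to 421 ± 4.63 CPM (-1.12, SE 0.0758, edgeR adjusted p = 4.28e-07), and C4orf27 (now HPF1) and ATP5I (now ATP5ME) fell by 0.75 and 0.74 on the log2 scale. The start sites listed for MYL5 and ATP5I have close coordinates, 674542 and 674276. Their promoters may therefore share a match, which was not checked.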
